A study of Danio rerio with 2 samples.

Results

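The 7 genes described here regulate ARF GTPases, the small G proteins that start coat assembly on Golgi membranes: gbf1, arfgef1 and arfgef2, which encode exchange factors, arfgap1, arfgap2 and arfgap3, which encode GTPase-activating proteins (GAPs), and arfip1, which encodes an ARF-binding protein. They were taken by name from the 21699 genes listed in at least 1 of 2 RNA sequencing libraries. Each name belonged to a single Ensembl gene, and all 7 genes were listed in both libraries. The study sorted kdrl:GFP+ cells at 44 hours post fertilization from zebrafish (Danio rerio) crosses that carried gbf1 tsu3994 and the transgene Tg(kdrl:GFP), in which the promoter of kdrl, a VEGF receptor gene of endothelial cells, drives green fluorescent protein. The mutant library came from embryos of mutant morphology, and the sibling library from embryos of the same cross with normal morphology. The labels state neither the genotypes of single embryos, nor the number pooled, nor the lesion in tsu3994. With 1 library per group there is no test between groups, and every difference below is between these 2 libraries.

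ARF GTPases are active when bound to GTP. Exchange factors load the GTP through a Sec7 domain, and GAPs trigger its hydrolysis, which releases the coat. In mammalian cells GBF1 acts at the early Golgi, where ARF recruits the COPI coat, whereas BIG1 and BIG2, the products of ARFGEF1 and ARFGEF2, act at the trans-Golgi network, where ARF recruits clathrin adaptors. ARFGAP1 senses curved membranes, ARFGAP2 and ARFGAP3 bind the COPI coat, and arfaptin-1, the product of ARFIP1, binds GTP-loaded ARF and ARL1 at the trans-Golgi network.

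Each library was deposited with an expected count, a listed length and an FPKM value per gene (fragments per kilobase of gene length and per 1000000 fragments). The expected counts summed to 6169373 in the mutant and 5657525 in the sibling library. The 10 genes with the most counts held 28.4% of the mutant and 36.2% of the sibling counts. A count ratio below is a gene's count divided by its library total, mutant over sibling, and it does not use the listed length. Its bracketed 95% interval is the exact conditional binomial interval and covers counting error only. Over 13656 genes with at least 20 counts in at least 1 library, the median count ratio was 1.24 (log2 0.31), and 74.7% of these genes had a ratio above 1. Ratios above 1 were therefore common, and each member is also set against the median gene.

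Both libraries held transcripts of marker genes of cell types other than endothelial cells. The 14 genes matched from the pan-endothelial marker list had a summed level of 253 FPKM in the mutant and 68.6 FPKM in the sibling library, with none at 0 in either. The erythroid list, led by globin genes, summed to 281188 FPKM in the mutant and 369479 FPKM in the sibling library over 15 genes, with 1 of 2 genes named slc4a1 (ENSDARG00000024560) at 0 in the sibling library. Skeletal muscle markers (19 genes) summed to 327 and 1140 FPKM in mutant and sibling, and epidermal markers (16 genes) to 829 and 1306 FPKM. Mural and fibroblast markers (16 genes, acta2 at 0 in sibling) summed to 406 and 288 FPKM, and myeloid markers (16 genes, 1 gene named mfap4 at 0 in mutant) to 967 and 675 FPKM. The mural and fibroblast sums understate the shift of a typical gene of that list. The median count ratio of its 14 genes tested was 2.13, and the ratio of its summed counts 1.31. In the myeloid sums, lyz alone held 823 FPKM in the mutant and 582 FPKM in the sibling library. The sums of the neural list (16 genes, 1 gene named fabp7 at 0 in mutant) were closer, at 606 and 571 FPKM in mutant and sibling. So were those of the liver and yolk list (13 genes, ttr at 0 in sibling), at 67.0 and 61.5 FPKM. In that list, ela2 and prss1 encode proteases of the pancreas rather than liver or yolk products. ela2 held 18.1 FPKM in the mutant and 11.1 FPKM in the sibling library, and prss1 2.79 and 3.74 FPKM. The liver and yolk sums also hide shifts of single genes. The median count ratio of its 9 genes tested was 0.74, and the ratio of its summed counts 0.94. Lens markers (6 genes) summed to 17.1 FPKM, or 98 counts, in the mutant and 1.16 FPKM, or 6 counts, in the sibling library, where bfsp2, cryaa and 1 gene named cryba2 were at 0. In these bulk libraries a different number of cells of a type and a different amount of RNA per cell cannot be told apart. The part of these shifts in the ARF regulator values was not tested.

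Of the 7 genes, 6 had more counts per library total in the mutant library than in the sibling library, and arfgef1 had nearly equal counts. The counting interval lay above 1 for 5 of them (gbf1, arfgef2, arfgap1, arfgap2 and arfgap3) and above the median gene's 1.24 for 4 (all of these but arfgap1). Over all genes tested, 40.1% had an interval above 1 and 18.9% one above the median gene. The median of the 7 ratios was 1.63, beside 1.24 over all genes. A count ratio of at least 2 was reached by 2 members, gbf1 and arfgap3, and a ratio of at most 0.5 by none. By this measure 12.7% of all genes tested were higher by 2-fold or more, and 1.9% were lower by as much. Both of these members came under 2-fold once the counts were centred on the median gene, at 1.68 for gbf1 and 1.79 for arfgap3. That centring also moved the share of all 2-fold calls that were higher to 64.5%, from 87.0% on library totals. By log2 of FPKM + 1, none of the 7 differed 2-fold, beside 7.72% of 8641 genes higher and 1.05% lower.

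**Figure D1:**
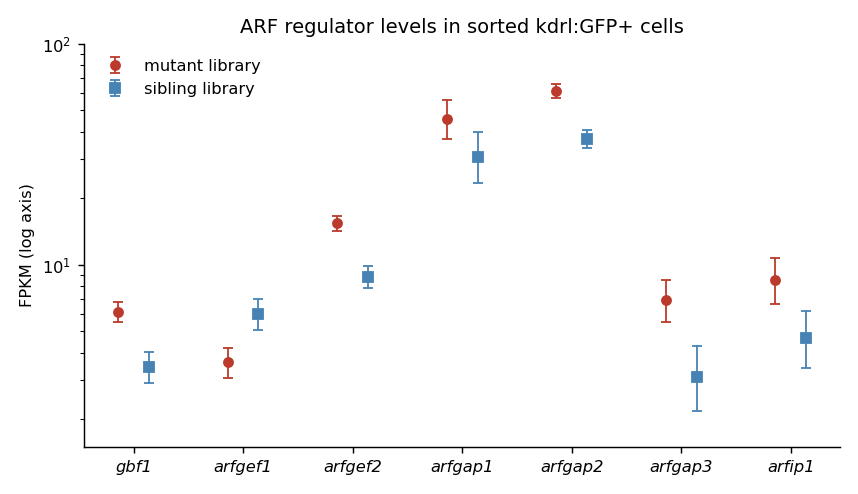
FPKM (log axis) of the 7 ARF regulators in the mutant library (circles) and the sibling library (squares). Bars are exact Poisson 95% intervals of the counts scaled to FPKM. The bars leave out any error of the listed length. Arfgap2 and arfgap1 stood highest in both libraries, and arfgef1 was the only member with a lower FPKM in the mutant library (3.62 against 5.99 in the sibling library). Its counts were 164 and 153 in mutant and sibling, at listed lengths of 7122 and 4374 bases.

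gbf1 (ENSDARG00000027016), the gene that carries the tsu3994 allele, was present in both libraries. It had 364 expected counts in the mutant and 161 in the sibling library, or 59.0 and 28.4 per 1000000 counts in mutant and sibling. The count ratio was 2.08 (1.72 to 2.51), above that of 88.6% of all genes tested. Its FPKM was 6.13 in the mutant and 3.44 in the sibling library, a smaller ratio of 1.78, because its listed length was 9330 bases in the mutant and 7981 bases in the sibling table. A plain mean over the gene's 2 annotated transcripts would be the same in both libraries, so the listed length depends on the library. How the transcripts were weighted is not given. The FPKM fold thus mixes a read shift (log2 1.05) with a length shift (log2 0.23) that counts against it. The transcript level gives no check of the genotype, since the kind of lesion is not stated.

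arfgef2 (ENSDARG00000074702), whose product BIG2 is the trans-Golgi counterpart of GBF1, had 580 counts in the mutant and 306 in the sibling library, a ratio of 1.74 (1.51 to 2.0). Its listed length was 5929 bases in the mutant and 5926 in the sibling table, and its FPKM of 15.4 in the mutant and 8.82 in the sibling library gave nearly the same ratio as its counts, 1.75. It was the most highly expressed of the 3 large exchange factors per length, with 61.2% of their summed FPKM in the mutant and 48.3% in the sibling library. The difference between these shares is not one of reads alone, since they depend on the listed length of arfgef1. That length was 7122 bases in the mutant and 4374 bases in the sibling table, at 164 and 153 counts.

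arfgef1 (ENSDARG00000063474), which encodes BIG1, was the exception. It had 164 counts in the mutant and 153 in the sibling library, a ratio of 0.98 (0.78 to 1.23), lower than that of 76.4% of all genes tested. Its FPKM was 3.62 in the mutant and 5.99 in the sibling library, a ratio of 0.60 at nearly equal counts per library total. Its listed length was 7122 bases in the mutant and 4374 bases in the sibling table, 1.63 times as long. A length shift of that size or more, in either direction, was listed for 2.18% of 8431 genes with several transcripts and at least 20 counts in a library. Among the 3632 of those with at least 100 counts in both libraries, it was listed for 0.468%. Which of the 2 transcripts the reads came from, and the error of that assignment, are not given in the tables. Relative to the median gene, the count ratio of arfgef1 was 0.79, with an interval that ended just under 1 (0.63 to 0.997). On library totals the interval held 1. Of the scalings run, centring gave arfgef1 its lowest log2 count ratio, -0.33, against -0.19 without the 10 highest genes. The share of all genes with an interval below the median gene was not computed.

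**Figure D2:**
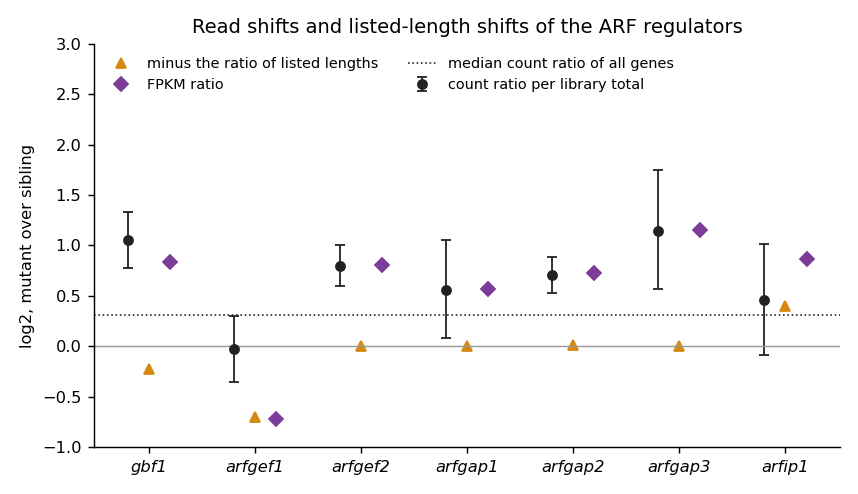
For each ARF regulator, log2 of the count ratio per library total with its 95% counting interval (circles), minus log2 of the ratio of listed lengths (triangles) and log2 of the FPKM ratio (diamonds), all mutant over sibling. The dotted line is the median count ratio of all genes, 0.31. The FPKM ratio of arfgef1 follows its length shift of 0.70, while arfgef2, arfgap1, arfgap2 and arfgap3 have length shifts near 0.

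Setting the members against each other within a library needs no scaling between libraries. For each arfgef1 count there were 2.22 gbf1 counts in the mutant and 1.05 in the sibling library, a ratio of 2.11 (1.56 to 2.84). There were 3.54 arfgef2 counts per arfgef1 count in the mutant and 2.0 in the sibling library, a ratio of 1.77 (1.35 to 2.31). gbf1 and arfgef2 differed less from each other, with 0.628 gbf1 counts per arfgef2 count in the mutant and 0.525 in the sibling library, a ratio of 1.19 whose interval held 1 (0.94 to 1.51). Of the 21 pairs of members, the interval, not adjusted for the number of pairs, excluded 1 for 5. Of these pairs, 4 paired arfgef1 with gbf1, arfgef2, arfgap2 or arfgap3, and the other was gbf1 with arfgap2 (1.27, 1.01 to 1.60). The first 4 share the arfgef1 counts, so they are not independent of each other. No share over pairs of all genes was computed to set beside this count.

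All 3 GAP genes had more reads in the mutant library. arfgap2 (ENSDARG00000067601) had 756 counts in the mutant and 425 in the sibling library, the most of the 7 genes, with a ratio of 1.63 (1.45 to 1.84). Its FPKM was 61.4 in the mutant and 37.2 in the sibling library, and its listed lengths of 1962 and 1978 bases differed by under 1%. arfgap3 (ENSDARG00000097583), which encodes the closest relative of ARFGAP2, had 87 counts in the mutant and 36 in the sibling library. Its ratio of 2.22 was the highest of the 7 but the least precise (1.49 to 3.37), and among the members that interval lay apart from arfgef1's alone. Its FPKM was 6.91 in the mutant and 3.11 in the sibling library, at a listed length of 2005 bases in both. arfgap2 and arfgap3 thus differed in level far more than in ratio, with 8.69 arfgap2 counts per arfgap3 count in the mutant and 11.8 in the sibling library (0.74, 0.48 to 1.12).

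arfgap1 (ENSDARG00000101616) had 95 counts in the mutant and 59 in the sibling library, a ratio of 1.48 (1.06 to 2.08). That interval lay above 1 but held the median gene's 1.24. Its FPKM of 45.9 in the mutant and 30.9 in the sibling library was second among the members, but it rests on 1 annotated transcript of 360 bases. Only 0.278% of all genes tested were listed at that length or less, so the level per length of arfgap1 depends on that short model. Its count ratio does not use the length, but it too covers only reads assigned to that 1 transcript. arfgap1 took 40.2% of the summed FPKM of the 3 GAP genes in the mutant and 43.4% in the sibling library, and arfgap2 took 53.8% and 52.2%.

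arfip1 (ENSDARG00000070055) had 72 counts in the mutant and 48 in the sibling library. The ratio of 1.38 had an interval that held 1 (0.94 to 2.03). Its FPKM was 8.50 in the mutant and 4.65 in the sibling library, a larger ratio of 1.83, since its listed length over 4 transcripts was 1361 bases in the mutant and 1789 bases in the sibling table. A length shift at least as large was listed for 7.95% of genes with several transcripts. For arfip1 the length shift thus added to the FPKM fold, for gbf1 it took from it (18.1% of such genes had a shift at least as large), and for arfgef1 it made up nearly all of the log2 FPKM ratio of -0.73.

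The order of FPKM levels from high to low was arfgap2, arfgap1, arfgef2, arfip1, arfgap3, gbf1 and arfgef1 in the mutant library. In that order the counting intervals of arfip1 and arfgap3 overlapped, as did those of arfgap3 and gbf1. In the sibling library the order was arfgap2, arfgap1, arfgef2, arfgef1, arfip1, gbf1 and arfgap3. There the intervals of arfgap2 and arfgap1 overlapped, and so did those of each neighbouring pair from arfgef1 to arfgap3. The first 3 places were the same, whereas arfgef1 stood last in the mutant library and next after them in the sibling library, with the listed lengths given above.

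Other regulators of ARF were read from lists by symbol. Of 13 other exchange factor genes with at least 20 counts in a library, 5 had a count ratio of at least 2 and none of at most 0.5, or 38.5% beside 12.7% of all genes, with a median of 1.72. That median rests on entries matched without their paralog letter: over the 7 genes whose symbols matched as written it was 0.90, with 1 gene at 2-fold or more. Their largest ratio was that of iqsec2 (ENSDARG00000077709), a brefeldin-resistant exchange factor that acts on ARF6 in mammalian cells, at 36 counts in the mutant and 7 in the sibling library (4.72, 2.07 to 12.6). Next came its relative iqsec1 (ENSDARG00000016551) with 400 and 142 counts (2.58, 2.13 to 3.15) in mutant and sibling. The cytohesins cyth3 (ENSDARG00000005159; 2.11, 1.53 to 2.90) and cyth4a (2.01, 1.08 to 3.88) followed, and a second gene named iqsec1 (ENSDARG00000073822), at 24 counts in the mutant and 11 in the sibling library, stood at 2.0 (0.94 to 4.52). cyth2, at 55 and 52 counts in mutant and sibling, had a ratio of 0.97 (0.65 to 1.45). psd2, at 69 and 88 counts, had a ratio of 0.72 (0.52 to 0.997), at listed lengths of 2860 and 6454 bases. Namesakes below 20 counts had fewer counts in the mutant than in the sibling library. These were another iqsec2 (11 and 16 counts) and the other genes named cyth3 (10 and 14, and 3 and 6.5). With counts centred on the median gene, 2 of the 13 stayed at 2-fold or more, beside 956 of all 13656 genes tested.

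Of 20 other ARF GAP genes, 3 had a ratio of at least 2 and none of at most 0.5, or 15.0% beside 12.7% over all genes, with a median of 1.37. arap3, a GAP for ARF GTPases, had 61 counts in the mutant and 20 in the sibling library (2.80, 1.66 to 4.89). acap3 (ENSDARG00000075990) was at 2.75 (2.03 to 3.74), agap2 at 2.01 (1.46 to 2.80) and asap3 at 1.86 (1.54 to 2.26). Centred on the median gene, as under TMM and median-of-ratios scaling, 2 of the 20 were higher by 2-fold or more and 1 was lower. Of all 13656 genes tested, 956 were higher and 527 lower by as much when centred. Of 34 ARF effector and partner genes, 6 had a ratio of at least 2 (17.6% beside 12.7%) and 1 of at most 0.5, with a median of 1.40. Under each of the 4 other scalings run, 3 were higher by 2-fold or more and 1 was lower. Over all genes tested, the numbers higher in those settings ran from 956 (centred) to 1251 (without the 10 highest genes). Those lower were 527 and 392 in these 2 settings.

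Among these effectors the paralog of arfip1 had the largest ratio. One gene named arfip2 (ENSDARG00000056664), which encodes an arfaptin, had 137 counts in the mutant and 26 in the sibling library, at the same listed length of 1749 bases, and its FPKM was 12.5 in the mutant and 2.58 in the sibling library. Its count ratio of 4.83 (3.16 to 7.66) lay above the whole interval of arfip1 (0.94 to 2.03). The other gene named arfip2 (ENSDARG00000059244) had 81 counts in the mutant and 56.8 in the sibling library, a ratio of 1.31 (0.92 to 1.86) close to that of arfip1. The next largest shifts were in the lipid kinase genes pip5k1ba, with 21 counts in the mutant and 4 in the sibling library (4.81, 1.62 to 19.3), and pip5k1ca (3.0, 1.65 to 5.75), and in rab1bb, which encodes a Rab GTPase of ER-to-Golgi transport, with 29 and 55 counts in mutant and sibling (0.48, 0.30 to 0.77).

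The members' median of 1.63 was near the median of 1.53 over 9 ARF GTPase genes, among which arf4b reached 44.3 (33.0 to 61.8). Over the 8 ARF GTPase genes whose symbols matched as written, the median was 1.78. Of the 9, 4 had a ratio of at least 2 (44.4% beside 12.7% of all genes) and 1 of at most 0.5. Of the 8 matched as written, 4 had a ratio of at least 2 and 0 one of at most 0.5. Centred on the median gene, as under TMM and median-of-ratios scaling, 2 of the 9 were higher by 2-fold or more and 1 lower. Among all 13656 genes tested, 956 were higher and 527 lower by as much when centred. The members' median was below the 3.65 of 9 COPI coat genes. The lowest COPI ratio, that of copz1 at 1.54 (1.25 to 1.89), overlapped the interval of gbf1.

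**Figure D3:**
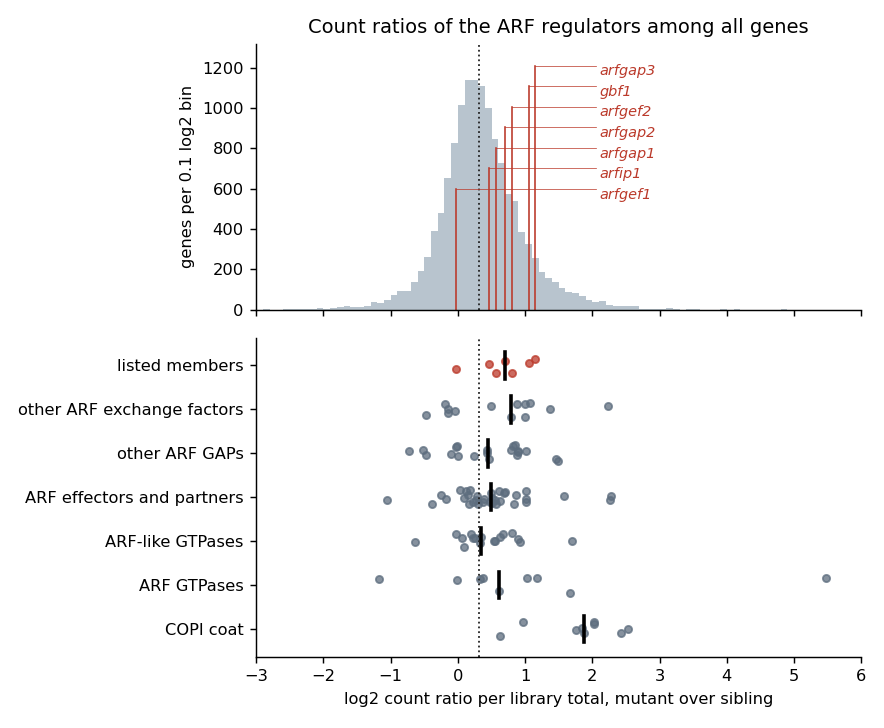
Top, histogram of log2 count ratios (mutant over sibling, per library total) of genes with at least 20 counts in a library, with a line for each ARF regulator. Bottom, the same measure for each gene of the ARF-related lists, with bars at the medians. The dotted line is the median of all genes at 0.31. The members lie between -0.02 (arfgef1) and 1.15 (arfgap3), while 7 of 9 COPI coat genes lie above 1. Of all genes tested, 12.7% were at least 2-fold higher, that is, at 1 or above on this axis.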

How the data were processed

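Libraries were made from poly(A) RNA with random hexamers and PCR, per the labels' protocols, with no strand-marking step described. Per the submitters' processing notes, bcl2fastq 2.16, Bowtie2, BWA and RSEM were used with GRCz10. The sources used here do not give the role of each tool or the annotation release. The deposited expected counts carry no normalization (73.8% of mutant and 74.3% of sibling values were whole to within 0.005). FPKM was deposited by the authors scaled by gene length and library only. Listed lengths were equal in both tables for all 8141 genes with a single transcript listed in both, and differed by over 1 base for 8058 of 11091 with several. Genes missing from a table were given 0 there.

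Counts were rounded for intervals. Folds of FPKM used a pseudocount of 1, limited to genes that reached 5 FPKM in a library and 20 counts in a library. Intervals and shares were computed with Python 3.11.15 and scipy 1.17.1, and TMM factors with edgeR 4.0.16. The ratio and interval calculations were tested on simulated Poisson libraries, for direction, scaling and interval coverage under counting error alone. With 1 library per group, intervals cover counting error only. PCR copies were not told apart by molecular identifiers, so the intervals may be too narrow even for that error. Symbols came from a table of Ensembl IDs that named 19802 of the 21699 genes (91.3%), in lower case here. List entries were matched as written or without the paralog letter, so some symbols stand for several genes. The members and lists were chosen with earlier results of these data known. The retina genes of 1 marker list are not reported here. Named genes are the 7 members, up to 4 genes per ARF-related list with the largest absolute log2 count ratio, and genes that share a member's symbol, of which there were none. Some genes beyond that rule were chosen after their values were seen. These were cyth2, psd2, the further genes named iqsec1, iqsec2, cyth3 and arfip2, copz1, the single marker genes and the genes of the closing section.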

Additional observations from a re-analysis of the deposited data

How the results depend on the processing

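For the members, the direction of every count ratio on library totals was the same under TMM, median-of-ratios scaling, totals without the 10 highest genes and centring on the median gene. Across these, log2 count ratios ranged from 0.75 to 0.89 for gbf1, from 0.84 to 0.98 for arfgap3 and from -0.33 to -0.19 for arfgef1. No member (0) then reached 2-fold, against 2 on library totals. Over all genes, those at least 2-fold higher and lower by counts numbered 996 and 500 under TMM, 988 and 516 under median of ratios, 956 and 527 centred, and 392 were lower without the 10 highest genes. The higher share of calls was 66.6%, 65.7%, 64.5% and 76.1% in those settings, in the same order. Without a filter the counts were 4285 and 2293. With at least 100 counts in a library they were 592 and 50, and 1 member, gbf1, passed. By FPKM, 1 member passed 2-fold, arfgap3, with a pseudocount of 0.1 and likewise in TPM (1). All-gene counts were 193 and 40 with a pseudocount of 5, and 1205 and 292 without a filter. At the mean of both listed lengths the log2 fold of arfgef1 on FPKM + 1 was -0.02, against -0.60 as deposited. Under the scalings, added for the lists after the data were seen, 2 of the other exchange factors passed in each setting, and with symbols as written 1 of 7 did on library totals. No paired analysis was possible because each group has 1 library, and no replicate could be left out. Depth limits arfgap3, arfip1 and arfgap1 most, with under 100 counts in each library.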

Other observations

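ARF-like GTPases, relatives of ARF with their own exchange factors, had a median count ratio of 1.27 over 17 genes, near the 1.24 of all genes. On library totals 5.88% of them were at least 2-fold higher, a smaller share than the 12.7% of all genes tested. The list held 1 gene at least 2-fold higher, and it was so under every scaling run. This was arl1, whose product recruits golgins and arfaptins to the trans-Golgi network, with 387 counts in the mutant and 110 in the sibling library (3.23, 2.60 to 4.02). Its FPKM was 59.2 in the mutant and 18.3 in the sibling library, at a listed length of 1059 bases in both. arfrp1, which acts before ARL1 at the trans-Golgi network in mammalian cells, had 62.8 counts in the mutant and 31.0 in the sibling library (1.86, 1.19 to 2.96). A gene named arl8b (ENSDARG00000070318), for a GTPase of lysosome transport, was at 1.90 (1.17 to 3.17), and the other arl8b (ENSDARG00000006915) at 1.07 (0.90 to 1.26). The most abundant gene of the list, named arl4a (ENSDARG00000099918), was lower in the mutant library, at 1098 counts in the mutant and 1566 in the sibling library (0.64, 0.59 to 0.69).

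Some exchange factor genes of the lists were too low to compare. arfgef3, a relative of arfgef1 and arfgef2, had 18 counts in the mutant and 11 in the sibling library. psd, an exchange factor for ARF6 in mammalian cells, had 11 counts in each library. mon2, a relative of the large exchange factors from the effector and partner list, had 515 counts in the mutant and 235 in the sibling library (2.01, 1.72 to 2.36). On library totals 12.7% of all genes tested were at least 2-fold higher. Under every other scaling run, mon2 came under 2-fold.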
